A study of Mus musculus with 50 samples.

Results

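Casz1 encodes a zinc finger transcription factor and is 1 of the genes with lower methylation in muscle from which Dnmt3a was deleted. The CpGs described here are all those that the deposited table assigns to the promoter or the gene body of Casz1 (ENSMUSG00000028977), and they numbered 77 of 205304. Of these, 25 lay in the promoter, 68 in the gene body and 16 in both. They fell into 14 of the 51038 clusters, a cluster being a run of neighbouring CpGs at most 100 bp apart. The gene was picked for the difference between genotypes at its cluster 10, so it was chosen by measured WT and mD3AKO levels, and the values of Casz1 in that contrast are given as a description. No p-value of it is given for Casz1, and where its clusters or gene body passed the threshold of the fit over all features, nothing is read from that. Time after exercise, sex and their interactions with genotype were not used to pick it and were tested.

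The soleus, a calf muscle rich in slow fibres, was profiled by reduced representation bisulfite sequencing (RRBS) in 44 mice of 12 weeks on a C57BL/6 background, 21 females and 23 males. All mice carried floxed alleles of Dnmt3a on both chromosomes (Dnmt3a flox/flox). The mD3AKO mice also carried mCK-Cre, a transgene in which the promoter of muscle creatine kinase drives Cre late in muscle differentiation, and WT mice were those without the transgene. Some mice were not exercised (rest, 5 WT and 5 mD3AKO). The others ran on a treadmill for 30 min and gave their muscles 10 min (5 and 5), 30 min (5 and 7) or 60 min (6 and 6) later. Because Cre acts in muscle fibres, satellite cells and non-muscle cells of the same soleus keep the intact gene. In such bulk DNA, a lower level in each cell and a different mix of cells cannot be told apart.

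CASZ1 is the vertebrate counterpart of the Drosophila protein castor. It is known for its part in the development of heart and blood vessels, has been linked to MYOD and MYOG in the differentiation of skeletal muscle, and has been linked to the NuRD chromatin remodelling complex. DNMT3A is a de novo DNA methyltransferase, which adds methyl groups to cytosines of CpGs. Methylation at the start of a gene usually goes with silence, while methylation within a transcribed gene body is common in active genes.

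Casz1 spans 150.461 kb on the plus strand of chromosome 4 (GRCm38, the same assembly as mm10, 148804429 to 148954889). The clusters are numbered 1 to 14 along the gene, and features are those of its longest transcript, Casz1-202 with 21 exons. The sequence of cluster 10 is shown because the largest loss relative to the spread between mice lay there, that of cluster 14 because the largest loss in points lay there, and those of clusters 11 and 12 as the next cluster downstream and as a CpG-rich stretch nearly free of methylation in both genotypes. Each is printed from 10 bases before its first CpG to 10 bases after its last (GRCm38, plus strand), with the measured CpGs in capitals.
Cluster 10, intron 2, chr4:148885940-148886045: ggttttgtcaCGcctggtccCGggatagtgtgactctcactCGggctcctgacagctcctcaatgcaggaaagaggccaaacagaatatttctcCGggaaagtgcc
Cluster 11, intron 3, chr4:148891387-148891452: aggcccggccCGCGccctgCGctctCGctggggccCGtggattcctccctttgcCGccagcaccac
Cluster 12, intron 3, chr4:148900848-148900887: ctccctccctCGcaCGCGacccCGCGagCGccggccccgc
Cluster 14, coding part of exon 21, chr4:148951999-148952091: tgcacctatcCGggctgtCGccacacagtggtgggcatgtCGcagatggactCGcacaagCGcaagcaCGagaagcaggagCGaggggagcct
The promoter stretch of the main start site is shown for its contrast with these, from RefSeq (GRCm38.p6), with 36 CpGs of which 9 were measured.
Casz1 promoter, chr4:148804142-148804441: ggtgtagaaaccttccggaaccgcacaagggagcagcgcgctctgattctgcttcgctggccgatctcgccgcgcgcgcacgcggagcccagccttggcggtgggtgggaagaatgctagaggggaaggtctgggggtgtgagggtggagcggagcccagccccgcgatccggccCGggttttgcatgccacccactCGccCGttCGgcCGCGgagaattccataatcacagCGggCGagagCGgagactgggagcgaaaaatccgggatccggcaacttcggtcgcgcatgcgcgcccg

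Samples had 12819404 to 41285655 methylation calls each. Coverage of Dnmt3a itself gave no check of the labels, since at 0 of its 21 CpGs was every mD3AKO sample below every WT sample. Over the 554 clusters outside Casz1 that passed the genotype test (edgeR quasi-likelihood, adjusted p under 0.05), however, every sample lay on the side of its label, although the clusters were called on the same samples. The share of these clusters nearer to the mD3AKO mean was 69.9 to 91.9% in mD3AKO samples and 13.0 to 41.5% in WT samples. The tissue label could be looked at only through promoter methylation, as no RNA was used. Promoters of 5 muscle fibre genes had a median WT level of 1.75%, against 0.840% over all 9761 promoters, and the highest was that of the actin gene Acta1 with 11.5%.

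The loss of methylation at Casz1 was uneven along the gene. The 3 CpG-rich clusters near its start sites were almost free of methylation in both genotypes, and the level at the clusters within the gene was partial, with WT means of 14.7 to 70.4%. In mD3AKO muscle clusters 10 and 14 differed from WT by -23.7 and -24.3 points and cluster 11 by -13.7 points, and the others differed by less than 10 points. Of the 14 clusters, 11 were lower in mD3AKO, with a median difference of -4.01 points. Over all clusters, 62.4% were lower, with a median difference of -0.455 points. Clusters 10 and 14 were past the threshold of the genotype test, 2 of 14 where 1.09% of all clusters were, but cluster 10 chose the gene and nothing is read from this count. A fall of at least 10 points was seen in 3 of the 14 clusters and in 4.99% of all clusters. Cluster 10 is 1 of these 3, so nothing is read from this count or from the medians. The medians were also not matched for WT level. Over all clusters the median was -2.41 points at WT levels of 20 to 40%, -1.99 points at 40 to 60% and -1.19 points at 60 to 80%, where cluster 10 lies.

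**Figure D1:**
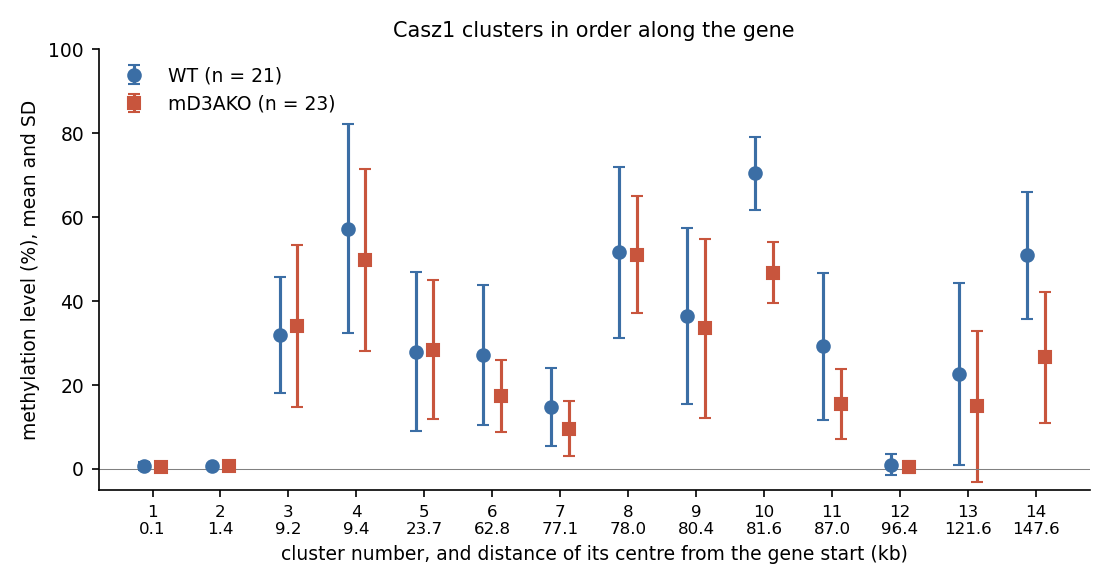
Methylation level of the 14 Casz1 clusters in order along the gene, with points for the mean and bars for the SD in WT (circles, n = 21) and mD3AKO muscle (squares, n = 23). The lower row of labels gives the distance of each cluster from the gene start in kb. The bars of both genotypes stand apart at cluster 10 and meet or overlap at the others, and clusters 1, 2 and 12 lie near 0.

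Cluster 10 (148885950 to 148886034) lies in intron 2, 81.6 kb from the gene start, in CpG-poor sequence with a ratio of observed to expected CpGs of 0.288 in the surrounding 500 bp. It holds 4 measured CpGs and had 486 to 3023 calls per sample. Its level was 70.4% ± 8.66 in the WT mice (SD, n = 21) against 46.7% ± 7.28 in the mD3AKO mice (SD, n = 23), a difference of -23.7 points. Each of the 23 mD3AKO mice lay under the WT mean.

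At rest the 5 WT muscles had levels of 65.8, 69.0, 70.5, 70.9 and 74.5% at cluster 10, and the 5 mD3AKO muscles had 45.6, 46.4, 55.1, 56.6 and 60.4%. At 10 min the WT muscles had 64.4, 65.4, 66.1, 72.5 and 76.5% and the mD3AKO muscles 40.8, 43.3, 46.3, 48.0 and 57.3%. The genotypes did not overlap at either time, which was so at 0.774% and 0.768% of all clusters with mD3AKO as the lower group.

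At 30 min the 5 WT muscles had 41.0, 72.7, 76.5, 76.7 and 80.9%, and the 7 mD3AKO muscles had a lowest level of 34.2, a median of 48.3 and a highest level of 52.0%. At 60 min the 6 WT muscles ranged from 63.3 to 82.3% with a median of 71.5%, and the 6 mD3AKO muscles from 32.6 to 51.7% with a median of 42.7%. The groups overlapped at 30 min through a single WT female, sample number 32, and did not overlap at 60 min. Levels did not overlap at 0.711% of all clusters at 30 min and at 0.451% at 60 min, with mD3AKO as the lower group. Without that mouse the lowest WT level of all times was 63.3% and the highest mD3AKO level was 60.4%, and the difference was -25.2 points. This mouse was left out after its level was seen. The share of all clusters at which the genotypes separate once 1 sample is left out was not computed. With all samples and all times together, the genotypes did not overlap at 0.00784% of all clusters, and cluster 10 was not among them. Sample 32 was low at each CpG of the cluster, with 60.1, 40.6, 37.1 and 0%, and it had 687 calls there. Of the 554 clusters named above, 36.8% lay nearer the mD3AKO mean in this mouse, which is within the range of the other WT samples.

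**Figure D2:**
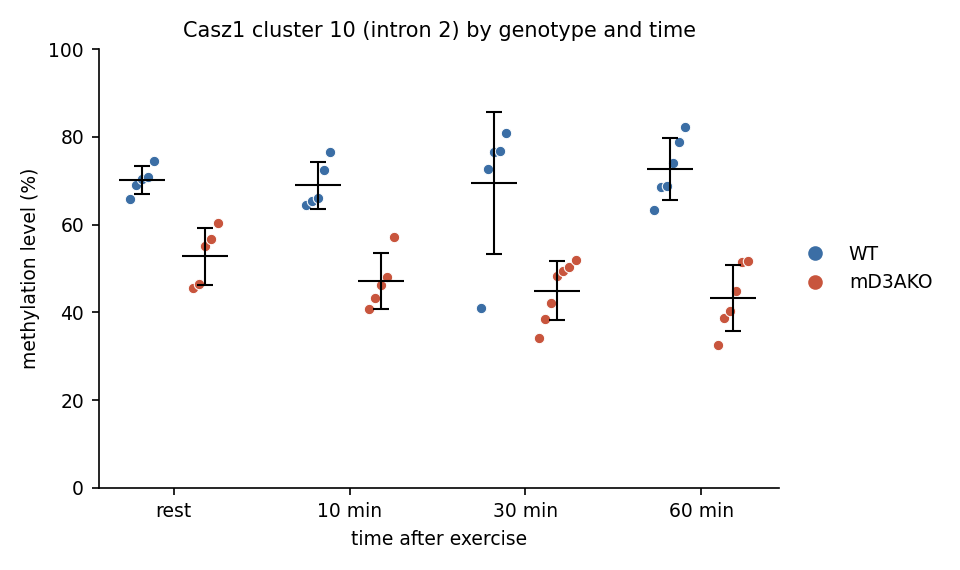
Methylation level of Casz1 cluster 10 in each muscle by time after exercise, with 1 point per mouse, a line for the group mean and bars for the SD, in WT (blue) and mD3AKO (red). The genotypes overlap only at 30 min, where 1 WT muscle lies at 41.0%, and the mD3AKO means go from 52.8% at rest to 43.3% at 60 min.

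In order, the group means at cluster 10 were 72.7% ± 7.10 (SD, n = 6) in WT at 60 min, 70.1% ± 3.15 (n = 5) in WT at rest, 69.6% ± 16.2 (n = 5) in WT at 30 min and 69.0% ± 5.29 (n = 5) in WT at 10 min. They were followed by 52.8% ± 6.53 (n = 5) in mD3AKO at rest, 47.1% ± 6.32 (n = 5) at 10 min, 45.0% ± 6.76 (n = 7) at 30 min and 43.3% ± 7.51 (n = 6) at 60 min. Neighbours in this order within a genotype differed by less than the SD of either. The WT means therefore had no order beyond the spread between mice, and the step between the lowest WT and the highest mD3AKO mean is the genotype difference that picked the gene.

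Whether running moved the level of cluster 10 was tested within each genotype against rest (exact permutation tests, two-sided, 6 comparisons with Benjamini-Hochberg adjustment). In WT the level differed from rest by -1.13 points at 10 min (adjusted exact p = 0.829), by -0.55 points at 30 min (adjusted exact p = 0.992) and by 2.58 points at 60 min (adjusted exact p = 0.688). In mD3AKO it differed by -5.69 points at 10 min (exact p = 0.190, adjusted 0.381), by -7.84 points at 30 min (exact p = 0.0707, adjusted 0.212) and by -9.52 points at 60 min (exact p = 0.0606, adjusted 0.212). None of the 6 differences passed the threshold. The small WT difference at 30 min depends on sample 32, with 41.0% where the other WT muscles of that time had 72.7 to 80.9%. The difference between genotypes was -17.3 points at rest and -21.8, -24.6 and -29.4 points at 10, 30 and 60 min, and these steps did not pass a test. The interaction of genotype and time had an adjusted p of 1 at this cluster in the edgeR quasi-likelihood test over all clusters.

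Sex made no difference at cluster 10 beyond the spread between mice. Over all mice, males minus females was 1.87 points (permutation test within groups, two-sided, p = 0.460, adjusted over 4 tests 0.614). In WT it was 5.10 points (permutation p = 0.218, adjusted 0.436) with 72.9% ± 5.99 (SD, n = 11) in males and 67.8% ± 10.6 (n = 10) in females. The WT females include sample 32 with 41.0%, which weighs on each sex difference that uses them, and the sex tests were not run without it. In mD3AKO it was -1.17 points (permutation p = 0.692), and the difference between the genotypes in the sex effect was -6.27 points (permutation p = 0.215, adjusted 0.436).

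Methylation at cluster 10 stepped down from its first CpG to its last in both genotypes. The first CpG (148885950) had 82.9% ± 8.12 in WT and 58.4% ± 7.95 in mD3AKO, and the second (148885960) 70.2% ± 9.69 and 42.7% ± 7.16. The third (148885981) had 58.7% ± 15.4 and 40.9% ± 17.1 (all SD, n = 21 and 23). The last (148886034) had 28.5% ± 17.9 and 23.6% ± 15.1, and its difference of -4.87 points was smaller than the SD of either genotype. At the first pair of CpGs 23 of 23 mD3AKO mice were below the WT mean, at the third 20 and at the last 15. The first pair had 170 to 1427 calls per sample and the last pair 50 to 283, so the pooled level of the cluster rests mostly on the first pair. The unweighted mean over the 4 CpGs gave a difference of -18.7 points.

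**Figure D3:**
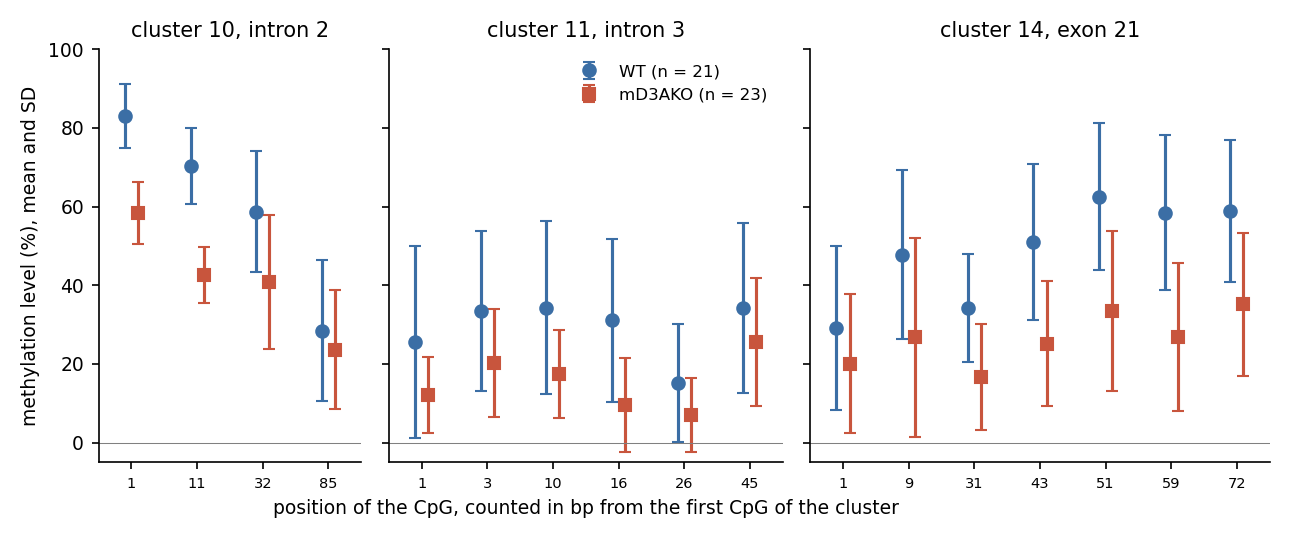
Methylation level of single CpGs in Casz1 clusters 10, 11 and 14, with points for the mean and bars for the SD in WT (circles, n = 21) and mD3AKO (squares, n = 23), against the position in bp from the first CpG of the cluster. At each CpG the mD3AKO mean is the lower, with a difference of -4.87 points at the last CpG of cluster 10 and of -31.6 points at the sixth of cluster 14.

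Cluster 14 (148952009 to 148952080) lies at the other end of the gene, in the coding part of the last exon, exon 21, and 147.6 kb from the start. Its surroundings are CpG-rich, with a ratio of observed to expected CpGs of 0.801 and 69.2% GC. It holds 7 measured CpGs and had 252 to 1349 calls per sample. The level was 50.9% ± 15.1 in the WT mice (SD, n = 21) against 26.6% ± 15.6 in the mD3AKO mice (SD, n = 23), a difference of -24.3 points. Of the 23 mD3AKO mice, 21 were below the WT mean.

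Individual mice varied more at cluster 14 than at cluster 10. At rest the 5 WT muscles had 45.4, 48.5, 52.8, 55.6 and 71.2%, and the 5 mD3AKO muscles 8.72, 15.2, 30.6, 32.5 and 35.7%. At 10 min the WT muscles had 34.9, 46.2, 47.8, 51.3 and 54.1%, and the mD3AKO muscles 1.98, 17.4, 19.7, 29.0 and 42.3%. The genotypes did not overlap at rest, which was so at 0.774% of all clusters with mD3AKO as the lower group, and did at 10 min.

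At 30 min the 5 WT muscles had 16.1, 40.9, 56.8, 64.3 and 71.3%, the lowest being again sample 32, and the 7 mD3AKO muscles ranged from 5.97 to 66.3% with a median of 31.8%. At 60 min the 6 WT muscles ranged from 25.5 to 73.6% with a median of 49.7%, and the 6 mD3AKO muscles from 17.5 to 40.4% with a median of 22.7%. The genotypes overlapped at both times. The mD3AKO mean was nonetheless the lower at each time, with differences of -30.2 points at rest and -24.8, -16.8 and -27.3 points at 10, 30 and 60 min.

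Each of the 7 CpGs of cluster 14 was lower in mD3AKO, with differences of -31.6 to -9.05 points. The smallest difference was at the first, with 29.2% ± 20.9 in WT and 20.1% ± 17.6 in mD3AKO, and the largest at the sixth (148952067), with 58.4% ± 19.7 and 26.8% ± 18.9 (SD, n = 21 and 23). At this sixth CpG the mD3AKO level was 0.459 of that in WT, and at the second CpG of cluster 10 it was 0.608.

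Both sexes had a lower mean at cluster 14 in mD3AKO. Males had 52.3% ± 13.6 (SD, n = 11) in WT and 19.1% ± 11.7 (n = 12) in mD3AKO, a difference of -33.2 points. Females had 49.3% ± 17.2 (n = 10) and 34.8% ± 15.7 (n = 11), a difference of -14.5 points. The product of genotype and sex had an unadjusted p of 0.0332 and an adjusted p of 1 (edgeR quasi-likelihood test over all clusters), so it did not pass the threshold.

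**Figure D4:**
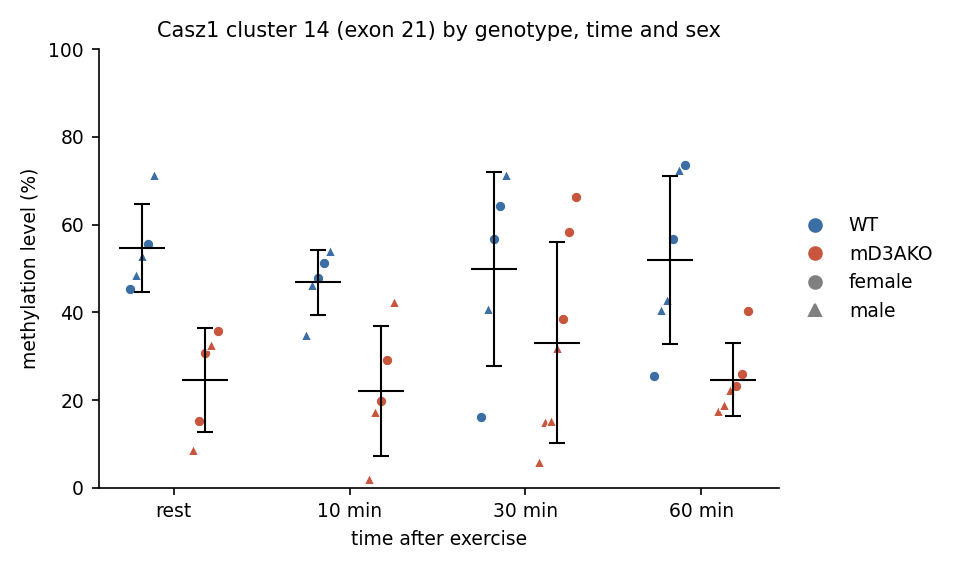
Methylation level of Casz1 cluster 14 in each muscle by time after exercise, in WT (blue) and mD3AKO (red), with circles for females, triangles for males, a line for the group mean and bars for the SD. The mD3AKO mean is the lower at each time. The genotypes are separate only at rest, where 0.774% of all clusters are separate with mD3AKO lower. The 2 highest mD3AKO muscles are females at 30 min, the highest with 66.3%.

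Cluster 11 (148891397 to 148891441), in intron 3 and in an exon of the short transcript Casz1-205, had the next largest difference. Its level was 29.2% ± 17.6 in the WT mice (SD, n = 21) against 15.5% ± 8.32 in the mD3AKO mice (SD, n = 23), a difference of -13.7 points that did not pass the genotype threshold, and 21 of 23 mD3AKO mice were below the WT mean. WT muscles ranged from 3.25 to 73.8% and mD3AKO muscles from 0.903 to 33.3%, so 12 of the 21 WT muscles lay at or under the highest mD3AKO level. Each of its 6 CpGs was lower in mD3AKO, most at the fourth (148891412), with 31.1% ± 20.6 and 9.57% ± 11.9. The highest WT level, 73.8%, came from a muscle with 107 calls, the fewest of any sample at this cluster.

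Between clusters 2 and 10 the difference between genotypes was smaller than the SD of WT at each cluster. Clusters 3 to 9 had WT means of 14.7 to 57.2% and differences of -9.94 to 2.15 points. Cluster 6 in intron 2 went from 27.2% ± 16.7 to 17.3% ± 8.57 and was lower at all 4 times. Cluster 8, in the same intron as cluster 10, had 51.6% ± 20.3 in WT and 51.1% ± 13.9 in mD3AKO, and the nearest, cluster 9, had 36.4% ± 21.0 and 33.5% ± 21.3. Cluster 3 was the one with the largest rise, from 31.9% ± 13.9 to 34.1% ± 19.2. This rise came from 10 min, with a difference of 22.5 points. At rest, 30 min and 60 min the mD3AKO mean was the lower, by -5.74, -0.422 and -5.63 points. Without sample 45 (mD3AKO, 10 min) the difference over all times was -0.0761 points. Cluster 13 in intron 4, a single CpG with as few as 8 calls in a sample, had 22.6% ± 21.6 and 14.9% ± 18.1 (all SD, n = 21 and 23).

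The promoter and the CpG-rich start of the gene held little methylation in either genotype. Cluster 1, on the main start site with 18 CpGs, had 0.703% ± 0.972 in WT and 0.366% ± 0.371 in mD3AKO, and cluster 2, with 22 CpGs in intron 1, had 0.699% ± 0.432 and 0.774% ± 0.506. Cluster 12 in intron 3, just ahead of the start of the short transcript Casz1-206, had 0.997% ± 2.51 and 0.526% ± 1.45 over 6 CpGs (all SD, n = 21 and 23). It had the highest ratio of observed to expected CpGs of the 14 clusters, 1.12. High CpG density and low methylation did not go together at every cluster of the gene, as cluster 14 with a ratio of 0.801 and cluster 11 with 0.656 had partial levels.

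Summed over the whole gene, the 68 CpGs of the gene body had a level of 24.2% ± 5.27 in the WT mice (SD, n = 21) against 18.2% ± 4.14 in the mD3AKO mice (SD, n = 23), and the gene body was past the genotype threshold, as were 1.40% of all gene bodies. The sum contains cluster 10, for which the gene was picked, so nothing is read from this call. The difference was -5.98 points and became -1.29 points over the 57 CpGs left without clusters 10 and 14. The 25 promoter CpGs had 0.676% ± 0.794 and 0.375% ± 0.364, and the promoter was not past the threshold, which 0.789% of promoters passed. For time, the interaction and sex, the adjusted p-values of gene body and promoter were 0.984 to 1 (edgeR quasi-likelihood).

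None of the 14 clusters passed the threshold for time after exercise, its interaction with genotype, or 10, 30 or 60 min against rest within a genotype. The same held for sex and the product of genotype and sex (edgeR quasi-likelihood test, adjusted p under 0.05). In these tests 0% of all 51038 clusters passed. The edgeR likelihood ratio test and limma, where run, also called none of the 14. Over all clusters the likelihood ratio test called 10 for time and 7 for the interaction, and limma called 0 and 1. In the quasi-likelihood test at an unadjusted p under 0.05 there was none of the 14 for time, where 2.85% of all clusters were. There was none for its interaction with genotype (2.73%) and none for sex (4.35%). In WT there was none at 10, 30 or 60 min against rest, where 4.29, 3.17 and 3.67% of all clusters were. In mD3AKO there was none at 10 or 30 min, where 2.89 and 2.80% were, and 1 at 60 min, where 3.00% were. The product of genotype and sex also gave 1, where 3.28% of all clusters were, and a share of 1 in 14 rests on a single cluster. The lowest unadjusted p for time was 0.177, at cluster 11, and that for the interaction 0.0811, at cluster 13. The cluster behind the 60 min count was cluster 13, whose mean in mD3AKO was 3.64% ± 3.78 (SD, n = 5) at rest and 31.2% ± 28.9 (SD, n = 6) at 60 min. The highest levels of that group, 70 and 57.1%, came from samples 10 and 19 with 10 and 21 calls at the single CpG of this cluster, and the lowest was 0%. The unadjusted p of cluster 13 in the edgeR quasi-likelihood test over all clusters was 0.0346 and its adjusted p was 1. For sex the lowest unadjusted p was 0.0544, at cluster 8.

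Levels of cluster 10 were set beside those of the other Casz1 clusters over the mice. Pearson's r over the 44 samples was 0.724 for the levels and 0.527 for the deviations from the 8 group means, and cluster 14 had the highest r of the other 13 clusters on both. By deviations, cluster 4 followed with 0.482 and cluster 7 with 0.321, cluster 11 had 0.011, and cluster 2 had the lowest, -0.453. These are descriptions, and the values of a mouse come from the same library. The r of the levels pools both genotypes. It holds the genotype difference that chose cluster 10 and that cluster 14 also has, so nothing is read from it. Sample 32 was the lowest of its group at both clusters 10 and 14, with 41.0 and 16.1%. Its deviations weigh on these r values, and r without this mouse was not computed. Among 18726 clusters outside Casz1 with at least 3 CpGs and 50 calls in every sample, the levels most like those of cluster 10 were at an intergenic cluster of chromosome 13 (r = 0.809) and in the bodies of Ppp1r18 (0.807), Spryd3 (0.773), Pknox2 (0.770) and Unc45b (0.768), each lower in mD3AKO on average. By deviations from the group means, which leave genotype and time out, they were intergenic clusters on chromosomes 5 (r = 0.693) and 16 (0.654) and clusters in Cc2d2b (0.673), Rasgef1b (0.643) and Tcf4 (0.641). The lists had no cluster in common. That the clusters of the first list were lower in mD3AKO follows from the genotype difference that chose cluster 10. Both lists hold the highest r of 18726 clusters, for which high values arise without any relation, so nothing is read from either.

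Around the gene the loss did not extend evenly. Within 500 kb on either side lay 46 clusters, of which 26 were lower in mD3AKO, with a median difference of -0.221 points, and 2 were past the genotype threshold, both lower. Over all clusters, 62.4% were lower, with a median of -0.455 points, and 1.08% were lower and past the threshold. These were an intergenic cluster 120.7 kb upstream, with 30.8% in WT and 18.1% in mD3AKO (edgeR quasi-likelihood, adjusted p = 0.00462), and another 491.2 kb downstream, with 16.1 and 4.95% (adjusted p = 0.0339). Clusters of the nearest genes on either side that were measured, Tardbp upstream and Pex14 downstream, had none past the threshold.

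**Figure D5:**
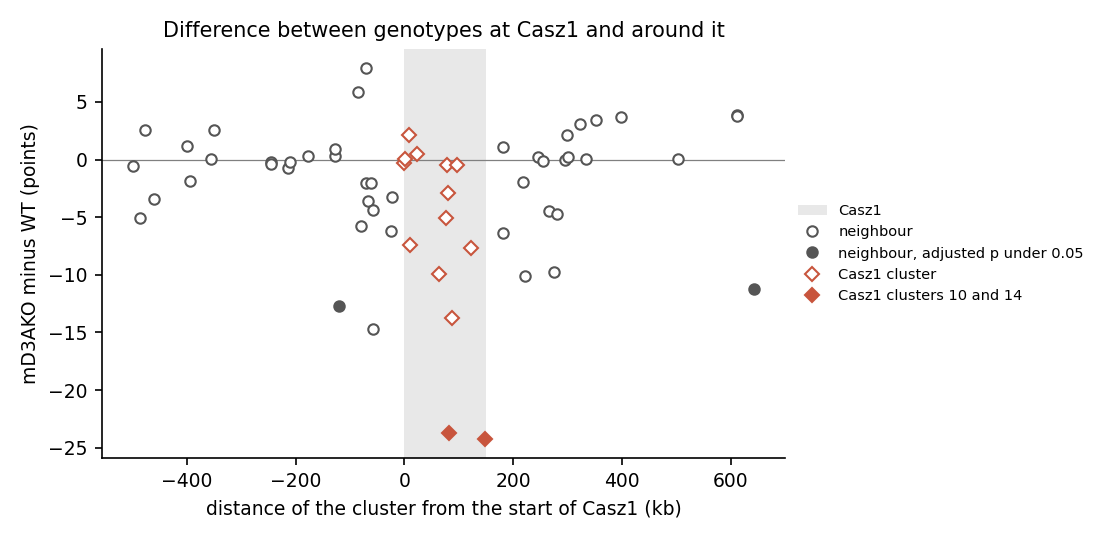
Difference in methylation level between genotypes (mD3AKO minus WT, in percentage points) at the 14 Casz1 clusters (diamonds) and at the 46 clusters within 500 kb (circles), against the distance from the start of Casz1 in kb, with the gene shaded. Filled diamonds are clusters 10 and 14 and filled circles are the 2 neighbours with an adjusted p under 0.05. The filled diamonds lie at -23.7 and -24.3 points, below the lowest neighbour at -14.7. Cluster 10 chose the gene for this difference and the neighbours were not so chosen, so nothing is read from its place below them.

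Genes that CASZ1 has been linked with were looked at for the same contrast, in a list chosen with results of these data known. Of 30 genes, 26 were measured with 68 clusters, 3 of which were past the genotype threshold, all lower, where 1.08% of all clusters were lower and past it. The median difference was -0.269 points, against -0.455 over all clusters. Among the myogenic factors, Mef2c, which encodes a transcription factor of muscle genes, went from 16.3% ± 14.1 to 2.10% ± 2.05 at a cluster of 5 CpGs (adjusted p = 0.000863, edgeR quasi-likelihood). Of the NuRD subunits, the promoter of Mta1 had 18.0% ± 19.2 and 3.82% ± 6.13 at a single CpG with as few as 9 calls (adjusted p = 0.0306), and Mbd2, which encodes a protein that binds methylated CpGs, had 73.4% ± 17.3 and 50.5% ± 17.3 over 7 CpGs (adjusted p = 0.0315; all SD, n = 21 and 23). No cluster of the cardiac factors (19), the vascular and neural genes (5) or the subunits of PRC2 (3) passed, and the promoter of Myod1, the master factor of myogenesis, had 5.55% in WT and 5.50% in mD3AKO. None of the 68 passed the edgeR quasi-likelihood test of time or of the interaction.

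Markers of muscle fibres and of other cells of muscle were set beside these values. Of 46 clusters of 11 muscle fibre genes 0 passed the genotype threshold (edgeR quasi-likelihood), which 1.09% of all clusters passed, so that a count of 0 among 46 is near the background. Of 24 clusters of 5 genes of other muscle cells, 4 were lower and past it, where 1.08% of all clusters were, all in Pax7, the transcription factor of satellite cells, for example 8.20% ± 4.76 in WT and 1.36% ± 1.20 in mD3AKO (SD, n = 21 and 23) at a cluster of 12 CpGs. The paper names Pax7 as a putative target of DNMT3A, with lower methylation in mD3AKO soleus, EDL and quadriceps. Its levels in this contrast therefore cannot serve as a measure of satellite cells. The clusters of Pecam1, Kdr, Pdgfra and Acta2 had none past the threshold. Of 3 genes of other tissues 1 was measured, with 1 cluster that did not pass. Depth at cluster 10 also differed between genotypes, with 1277 ± 512 calls in WT and 1634 ± 616 in mD3AKO (SD, n = 21 and 23). The part of these in the difference at Casz1 was not tested.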

How the data were processed

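The authors cut soleus DNA with MspI, which cuts at CCGG whatever its methylation, bisulfite-converted it and sequenced single ends of 75 bp. Per the labels, reads were trimmed with Trim Galore 0.4.0 and cutadapt 1.9.1 and aligned to mm10 with Bismark 0.18.1. CpGs covered by 8 or more reads in each sample and lying on autosomes were retained. The authors deposited raw counts, 1 for methylated and 1 for unmethylated calls of a CpG in a sample, with their assignment to promoters (from 3000 bp before to 1000 bp after a start), gene bodies and clusters. RRBS without molecular identifiers counts PCR copies, so calls overstate the number of independent molecules.

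Of 50 samples, 44 had counts, and 6 were not used here, for 1 of which the labels disagree on genotype. A level is methylated calls over all calls. Counts summed over all clusters, promoters and gene bodies were fitted in edgeR 4.0.16 (quasi-likelihood F test, a coefficient per sample and a methylation term for each of the 8 groups, common dispersion, from every 10th feature for clusters), with Benjamini-Hochberg adjustment over all features and a threshold of 0.05. The study names edgeR with genotype, time and their interaction, and its exact test was not known here. The fit was checked on simulated data. Alternatives were the edgeR likelihood ratio test, limma 3.58.1 with a pseudocount of 1, a coverage minimum of 20, other gaps, subsets of samples and leaving out each sample. Permutation tests of a level used 100000 resamples or were exact. Positions of Casz1 CpGs are given as that of the C, although for 12 of 77 the file gives the G. Gene models are those of GENCODE M21 (GRCm38).

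Clusters to name were cluster 10, those past a threshold, the 3 with the largest fall and rise between genotypes among clusters with 50 calls in every sample, and the 3 with the lowest p for time; the rest were added after their values were seen. The gene, the lists and the tests were chosen with earlier results of these data known. Each sample has a number of its own in its label. Samples numbered 1 to 25 were at rest or 60 min and 26 to 50 at 10 or 30 min. A difference of 10 or 30 min from rest therefore cannot be told apart from one between these sets of numbers.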

Additional observations from a re-analysis of the deposited data

Results flagged for a closer look

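In 6 of the 56 groups examined (7 named clusters in 8 groups) the highest or lowest mouse stood apart from the others by more than Dixon's 95% critical value, where chance alone gives about 2.8. At cluster 10 this was sample 32, a WT female at 30 min, with 41.0% where the nearest of the 5 had 72.7%. The same mouse had the highest level of its group at cluster 2, 2.18% where the nearest had 0.795%. Sample 23, a mD3AKO female at 60 min, had 40.4% at cluster 14 where the nearest of the 6 had 25.9%. The other 3 were at the nearly unmethylated clusters 1 and 2, with 4.41% in sample 38 (WT, 30 min) and 0.860% in sample 28 (mD3AKO, 10 min) at cluster 1 and 0.267% in sample 47 (WT, 10 min) at cluster 2, the last being low and the others high. No library was set aside for these values.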

How the results depend on the processing

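Clusters 10 and 14 were the 2 clusters of Casz1 past the genotype threshold under each setting tried (the edgeR likelihood ratio test, limma, a coverage minimum of 20 at which 5 of the 14 clusters were left, sex as a term, at least 50 calls in every sample, and without sample 32, a setting chosen after seeing the data). In limma without each of the 44 samples in turn the number was also 2. These settings use the same genotype values that picked the gene, so they show how the call moves with the processing and are no support for it. Over all clusters the number past the threshold was 556 in the main test, 1414 in the likelihood ratio test and 895 in limma. The tests of time, the interactions and sex called 0 of the 14 under each setting run for them. The difference at cluster 10 was -25.2 to -23.1 points without 1 sample, -18.7 as the unweighted mean and -25.4 with CpGs at most 50 bp apart, which leaves 3. It was -23.9 points in samples numbered 1 to 25 and -23.4 in 26 to 50, and -20.5 in females, with sample 32 among them, and -26.7 in males. That of cluster 14 was -26.1 to -23.1 points without 1 sample. In the sets of numbers, which also differ in time after exercise, that of cluster 14 was -28.6 and -19.9. That of cluster 11 was -19.1 and -8.26 in these sets. That of the gene body was -6.65 to -5.59 points without 1 sample. The lowest adjusted exact p for time at cluster 10 was 0.141 to 0.509 without 1 sample, and the 0.141 came without sample 32. Differences that did not pass the threshold changed sign at cluster 3 (-5.68 points in samples 1 to 25 and 9.69 in 26 to 50), at cluster 8 (-8.01 and 7.12; -9.51 in females and 7.68 in males) and at cluster 2 (0.194 and -0.0587), and the cause was not tested. No paired analysis was possible because the labels give each sample a number of its own. Clusters with few calls limit precision, since 6 of the 14 had under 50 calls in some sample.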

Other observations

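Within cluster 10 the difference between genotypes by time was not alike at its CpGs. At the first 2 it was -20.2 and -23.0 points at rest and -24.8 and -34.3 points at 60 min. At the third (148885981) the mean was 55.3% in WT and 59.5% in mD3AKO at rest, a difference of 4.19 points, and 65.7 and 33.1% at 60 min, a difference of -32.6 points. At the last CpG (148886034) the differences from rest to 60 min were -0.713, 3.37, -10.7 and -9.31 points. These CpGs were singled out after their values were seen, and time was not tested at single CpGs.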
